A study of Mus musculus with 2 samples.

Results

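Aminoacyl-tRNA synthetases are the enzymes that join each amino acid to its tRNA, and they were examined here in regulatory T cells (Tregs) sorted from adipose tissue. The genes were chosen by name: 39 genes that encode cytosolic synthetases, mitochondrial synthetases and scaffold proteins of the complex that several cytosolic synthetases form. Of these, 37 were among the 10219 genes of the deposited count table: all 20 cytosolic genes, 14 of 16 mitochondrial genes and all 3 scaffold genes. The mitochondrial genes Aars2 and Pars2 were not listed; the table holds no gene with a mean count under 50.5. The study compared Tregs of C57BL/6 mice aged 4 months in 2 libraries, 1 per genotype. The control carried Foxp3Cre, a Cre recombinase driven by the Treg gene Foxp3, and the knockout carried Hif1afl/fl;Foxp3Cre, so that the control shares the Cre and differs by the floxed Hif1a gene, which encodes the oxygen-regulated subunit of HIF-1. How many mice were pooled per library is not given in the labels. Because each genotype is represented by a single library, the spread between animals is unknown and no test was possible; levels, folds and counting intervals are given instead.

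Cells use separate synthetases for the ribosomes of the cytosol and for those of the mitochondria, and both sets are encoded in the nucleus. Names ending in ars2 mark the mitochondrial enzymes, while Gars and Kars each encode a cytosolic and a mitochondrial form. Many cytosolic synthetase genes are known targets of ATF4, the transcription factor that mammalian cells translate when amino acids run short or the endoplasmic reticulum is stressed. ATF4 binds C/EBP-ATF response elements, short sites that are often near the start of its target genes.

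The core of that element, TGATGNAA, was searched on both strands of RefSeq promoters (GRCm38.p6) that run from 250 bases before to 50 bases after the start of each gene; no other motif was searched. A promoter was matched by symbol for 29 of the 37 listed genes. None was matched for Cars, Hars, Lars, Nars, Rars, Vars, Wars and Hars2. Of these, Lars and Nars were lower by 2-fold or more in knockout Tregs, with log2 ratios of -1.85 and -1.61. The core was found in 5 of 13 cytosolic promoters and 0 of 13 mitochondrial ones, beside 4.51% of 27025 genes with a promoter in that table. The 5 genes were Aars, with 2 matches, and Gars, Iars, Tars and Yars. Of the 11 promoter-matched genes lower by 2-fold or more in knockout Tregs, 4 held the core, and of the other 18 only Aars did. The promoters of Tars, Yars, Iars and Gars are shown because these 4 genes carry the core and were more than 2-fold lower in knockout Tregs. Capitals mark the core, which is read as TTNCATCA where it lies on the opposite strand; all are written 5′ to 3′ on the strand of the gene.
Tars: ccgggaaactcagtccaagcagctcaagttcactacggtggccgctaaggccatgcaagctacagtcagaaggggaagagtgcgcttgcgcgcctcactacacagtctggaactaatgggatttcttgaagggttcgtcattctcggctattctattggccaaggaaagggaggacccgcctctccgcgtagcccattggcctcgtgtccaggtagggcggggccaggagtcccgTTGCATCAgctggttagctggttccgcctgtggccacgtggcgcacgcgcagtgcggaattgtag
Yars: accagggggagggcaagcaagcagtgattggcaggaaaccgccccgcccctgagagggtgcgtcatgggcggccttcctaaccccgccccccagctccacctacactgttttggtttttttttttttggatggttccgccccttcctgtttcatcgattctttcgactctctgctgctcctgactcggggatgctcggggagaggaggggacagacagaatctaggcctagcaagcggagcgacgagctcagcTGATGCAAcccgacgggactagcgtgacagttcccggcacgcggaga
Iars: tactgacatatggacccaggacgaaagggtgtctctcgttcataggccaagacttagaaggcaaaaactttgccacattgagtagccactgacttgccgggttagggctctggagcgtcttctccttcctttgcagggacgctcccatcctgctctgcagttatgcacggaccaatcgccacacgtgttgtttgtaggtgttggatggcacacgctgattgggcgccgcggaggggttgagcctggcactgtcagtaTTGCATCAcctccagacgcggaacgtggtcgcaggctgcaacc
Gars: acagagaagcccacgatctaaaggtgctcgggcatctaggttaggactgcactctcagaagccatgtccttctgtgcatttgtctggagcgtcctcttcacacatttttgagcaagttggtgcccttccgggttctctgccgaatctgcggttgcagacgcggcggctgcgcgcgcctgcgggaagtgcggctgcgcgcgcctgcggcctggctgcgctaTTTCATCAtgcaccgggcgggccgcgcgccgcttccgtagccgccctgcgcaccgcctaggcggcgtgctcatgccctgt
The Tars window is chr15:11399609-11399908 on the minus strand. The Yars window is chr4:129189653-129189952, the Iars window chr13:49681880-49682179 and the Gars window chr6:55037751-55038050, all on the plus strand. Counted from the start site, the core begins at base -15 in Tars, 4 in Yars, 8 in Iars and -30 in Gars. Tars, Iars and Aars hold the letters TTGCATCA, and Yars holds the same core on the other strand as TGATGCAA. A match describes these letters only, and binding was not measured.

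The libraries were checked against their labels first. Hif1a had 779.6 CPM (counts per 1000000 scaled counts) in knockout and 1273 CPM in control Tregs, 1.63-fold lower (95% counting interval 1.59 to 1.68); which exons are floxed is not given, so a count over the whole gene is a limited check. All 10 pan T cell markers were listed and within 2-fold, with summed levels of 4371 and 4054 CPM in knockout and control Tregs. All 5 Treg markers were listed and lower in knockout Tregs, with summed levels of 3083 CPM against 7666 CPM; Il2ra and Foxp3, at 608 CPM against 4346 CPM and 46.4 CPM against 104 CPM, were lower by 2-fold or more. Of 17 macrophage markers, 6 were listed and all 6 were higher by 2-fold or more in knockout Tregs, with summed levels of 3657 CPM against 245 CPM; Adgre1, Csf1r, Mrc1 and the C1q genes were not listed. Of 9 dendritic cell markers, 6 were listed, 4 of them higher and 1 lower by 2-fold or more. The lower one was Xcr1, at 4.09 CPM against 13.8 CPM. Summed levels of the 6 were 1097 CPM against 297 CPM. Most of that sum came from H2-Aa, at 419 CPM against 106 CPM, and H2-Ab1, at 626 CPM against 156 CPM. The part of other cell types in the ratios below was not tested. Of 10 proliferation genes, 6 were higher by 2-fold or more and 0 lower by 2-fold or more. Beside each marker count in this paragraph stand 10.9% of all listed genes higher and 8.41% lower by 2-fold or more.

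Cytosolic synthetase transcripts were lower in knockout Tregs as a group. Of 20 genes, 19 had a lower level, 10 were lower by 2-fold or more and 0 were higher by 2-fold or more. Among all listed genes, 49.6% were lower by any amount, 8.41% lower by 2-fold or more and 10.9% higher by 2-fold or more. The median log2 ratio of knockout over control was -1.06 for the cytosolic genes and 0.0054 over all listed genes. Together the 20 genes took 0.188% of all counts in knockout Tregs and 0.436% in control Tregs, and their summed level was 2.38-fold lower (2.35 to 2.42). Counting intervals cover counting error only. In bulk RNA, fewer cells of a type and less RNA per cell cannot be told apart. The 20 cytosolic genes all had a mean of at least 50 CPM; among the 3880 listed genes at that level 7.91% were lower by 2-fold or more. Pan T cell scaling, which sets the median ratio of the pan T cell markers to 0, moved the median of all genes to -0.16. The count of synthetase and scaffold genes lower by 2-fold or more was then 18 in place of 13, beside 11.4% of all listed genes.

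The lowest ratios belonged to threonyl-, leucyl-, tyrosyl- and phenylalanyl-tRNA synthetases. Tars, the threonyl enzyme, stood at 90.6 CPM in knockout Tregs and at 337 CPM in control Tregs, from 1041 and 4481 counts. It was 3.72-fold lower (3.48 to 3.98) and held rank 189 from the lowest ratio among the 10219 genes. Lars, which charges leucine tRNA and also takes part in leucine sensing by mTORC1, measured 88.1 CPM against 319 CPM, or 3.62-fold lower (3.38 to 3.88). Yars, the tyrosyl enzyme, stood at 58.5 CPM against 209 CPM, a 3.57-fold lower level (3.28 to 3.89). The phenylalanyl enzyme is built from an alpha subunit, Farsa, and a beta subunit, Farsb, and its subunits differed in size of ratio. Farsb measured 22.2 CPM against 78.6 CPM, or 3.54-fold lower (3.09 to 4.08), from 255 and 1045 counts. Farsa measured 39.4 CPM against 66.4 CPM, or 1.68-fold lower (1.5 to 1.89). The counting intervals of the subunits did not overlap.

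Another 6 cytosolic genes were between 2.2-fold and 3.1-fold lower. Nars, the asparaginyl enzyme, stood at 224 CPM in knockout Tregs and 682 CPM in control Tregs, from 2569 and 9065 counts, and was 3.05-fold lower (2.92 to 3.19). Iars, for isoleucine, measured 68.9 CPM against 208 CPM, or 3.02-fold lower (2.79 to 3.27). Gars, for glycine in both compartments, stood at 105 CPM against 308 CPM, a 2.95-fold lower level (2.76 to 3.14). The counting intervals of these 3 genes overlapped. Mars, for methionine, measured 50.7 CPM against 144 CPM, or 2.85-fold lower (2.59 to 3.13). Eprs, a single protein that charges both glutamate and proline tRNAs, stood at 160.5 CPM against 439 CPM, 2.73-fold lower (2.59 to 2.88). Kars, the lysyl enzyme of both compartments, was just inside the 2-fold limit at 70.8 CPM against 158 CPM, 2.23-fold lower (2.05 to 2.42).

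The remaining 10 cytosolic genes were within 2-fold, and 9 of them had a lower level in knockout Tregs. Hars, for histidine, was just outside the limit at 39.5 CPM against 78.4 CPM, 1.98-fold lower (1.78 to 2.22). Cars, for cysteine, had 102 CPM against 194 CPM, and Aars, for alanine, had 144 CPM against 263 CPM. Sars, for serine, had 260.0 CPM against 458 CPM. The lower levels of Cars, Aars and Sars, at 1.91-fold, 1.82-fold and 1.76-fold, had counting intervals that did not include 1. Rars, for arginine, stood at 56.2 CPM against 94.0 CPM and Dars, for aspartate, at 59.0 CPM against 97.3 CPM, lower by 1.67-fold and 1.65-fold. Vars, for valine, measured 82.5 CPM against 102 CPM, or 1.24-fold lower (1.14 to 1.35). Qars, the glutaminyl enzyme, was the exception in direction, at 58.7 CPM in knockout Tregs and 53.6 CPM in control Tregs. Its fold of 1.10 (0.984 to 1.22) had an interval that included 1, and its log2 ratio of 0.13 became -0.04 under pan T cell scaling.

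Wars, for tryptophan, is also an interferon gamma-induced gene. It stood at 75.4 CPM in knockout Tregs and 134 CPM in control Tregs, from 866 and 1780 counts, and was 1.78-fold lower (1.64 to 1.93). Of 12 interferon gamma response genes listed beside it, 1 was higher by 2-fold or more, which is near the 10.9% of all listed genes. Of the same 12, 0 were lower by 2-fold or more, beside 8.41% of all listed genes, and their median log2 ratio was 0.07. Gbp2, a guanylate-binding protein gene, was 2.02-fold higher, while Igtp and Psmb8 had log2 ratios of -0.36 and -0.34. These interferon genes thus lay on both sides of 0, and Wars lay below each of them.

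**Figure D1:**
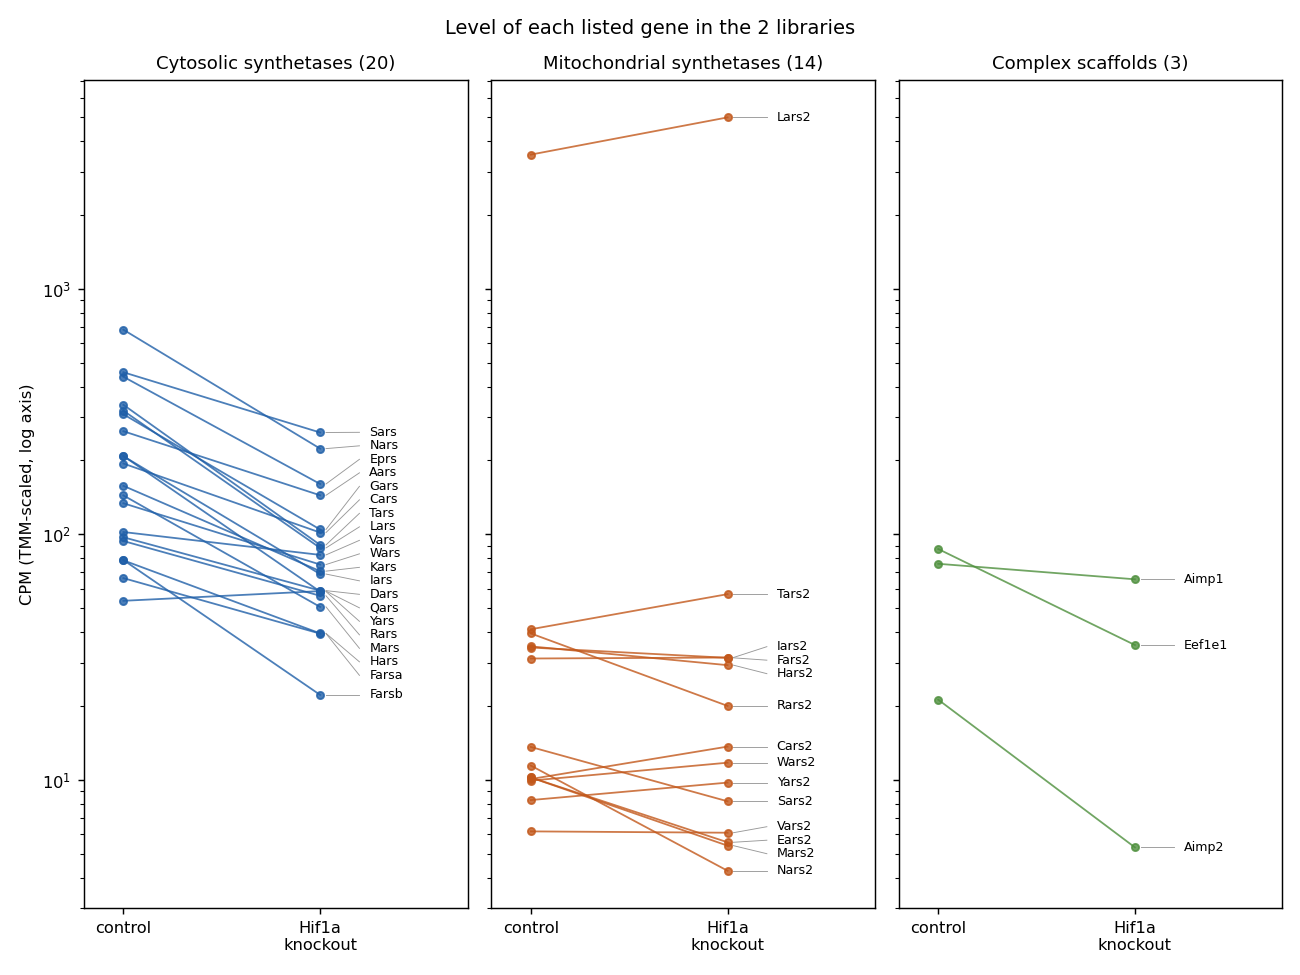
Level of each listed gene in the control and the Hif1a knockout library, in CPM on a log axis, with 1 line per gene and panels for the 20 cytosolic, 14 mitochondrial and 3 scaffold genes. In the cytosolic panel 19 of 20 lines descend, while Lars2, at 3524 CPM in control Tregs, lies far above the other mitochondrial genes.

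Levels were set between genes only per kilobase of exon, from GENCODE M21 exon lengths. The length of a gene was that of all its annotated exons merged, which can exceed the length of its transcripts. Eprs, for example, was given 18102 bases and so stood at place 16 in control Tregs, with 439 CPM. The places below therefore depend on this choice of length, and no other was tried. In control Tregs Nars was the most abundant cytosolic gene at 157 CPM per kilobase, followed by Gars at 98.9 and Sars at 89.0. Qars was the lowest at 8.16 CPM per kilobase. In knockout Tregs Nars and Sars led at 51.3 and 50.6 CPM per kilobase, and Gars followed at 33.6. Farsb, at place 12 of 20 in control Tregs, was at place 20 in knockout Tregs with 8.47 CPM per kilobase. Tars was at place 5 in control and place 11 in knockout Tregs, and Rars at place 14 and place 5, so the order of the enzymes differed between the libraries.

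The multisynthetase complex holds 8 of these cytosolic enzymes, here Dars, Eprs, Iars, Kars, Lars, Mars, Qars and Rars, on the scaffolds Aimp1, Aimp2 and Eef1e1. The share of all listed genes lower by 2-fold or more, 8.41%, stands beside each count in this paragraph. Of the 8 enzymes, 5 were lower by 2-fold or more. Their median log2 ratio was -1.30, with a range from -1.85 for Lars to 0.13 for Qars. Of the 12 cytosolic genes outside the complex, 5 were lower by 2-fold or more, with a median of -0.96. Class I and class II synthetases, which differ in the fold of their catalytic domain, had 5 of 10 genes each lower by 2-fold or more, with medians of -1.19 and -1.06. No test of these differences was possible with 1 library per genotype.

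The scaffold genes did not share 1 ratio. Aimp2, which binds the lysyl enzyme and organises the complex, stood at 5.31 CPM in knockout Tregs and 21.2 CPM in control Tregs, from 61 and 282 counts. It was 4.00-fold lower (3.02 to 5.36), the lowest ratio of all 37 genes. Eef1e1, also known as AIMP3, measured 35.4 CPM against 87.2 CPM, or 2.46-fold lower (2.2 to 2.76). Aimp1 measured 65.6 CPM against 75.9 CPM, or 1.16-fold lower (1.05 to 1.27). The intervals of Aimp1 and of the other scaffold genes did not overlap. Aimp2 shares 487 exon bases with Eif2ak1 on the opposite strand in the GENCODE M21 annotation; Eif2ak1 had a fold of 1.02, and the strand setting of the counting is not given in the sources used here. In all, 15 of the 37 genes share exon bases with another annotated gene, 6 of them cytosolic and 7 mitochondrial, and their counts are less certain. Mars, for example, shares 68 bases with Ddit3, which was 2.2-fold higher in knockout Tregs.

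Of the 20 cytosolic genes, 13 are commonly placed among the targets of ATF4 or of the amino acid response, and all 13 had a lower level in knockout Tregs. In that group 8 of 13 were lower by 2-fold or more, beside 8.41% of all listed genes. The group had a median log2 ratio of -1.50 and a range from -1.89 for Tars to -0.31 for Vars. Among the 7 other cytosolic genes, 2 were lower by 2-fold or more, Farsb and Kars, beside the same 8.41%, with a median of -0.74. The groups overlapped: Farsb, outside the target group, had a log2 ratio of -1.80, and Vars and Sars, within it, had -0.31 and -0.81.

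**Figure D2:**
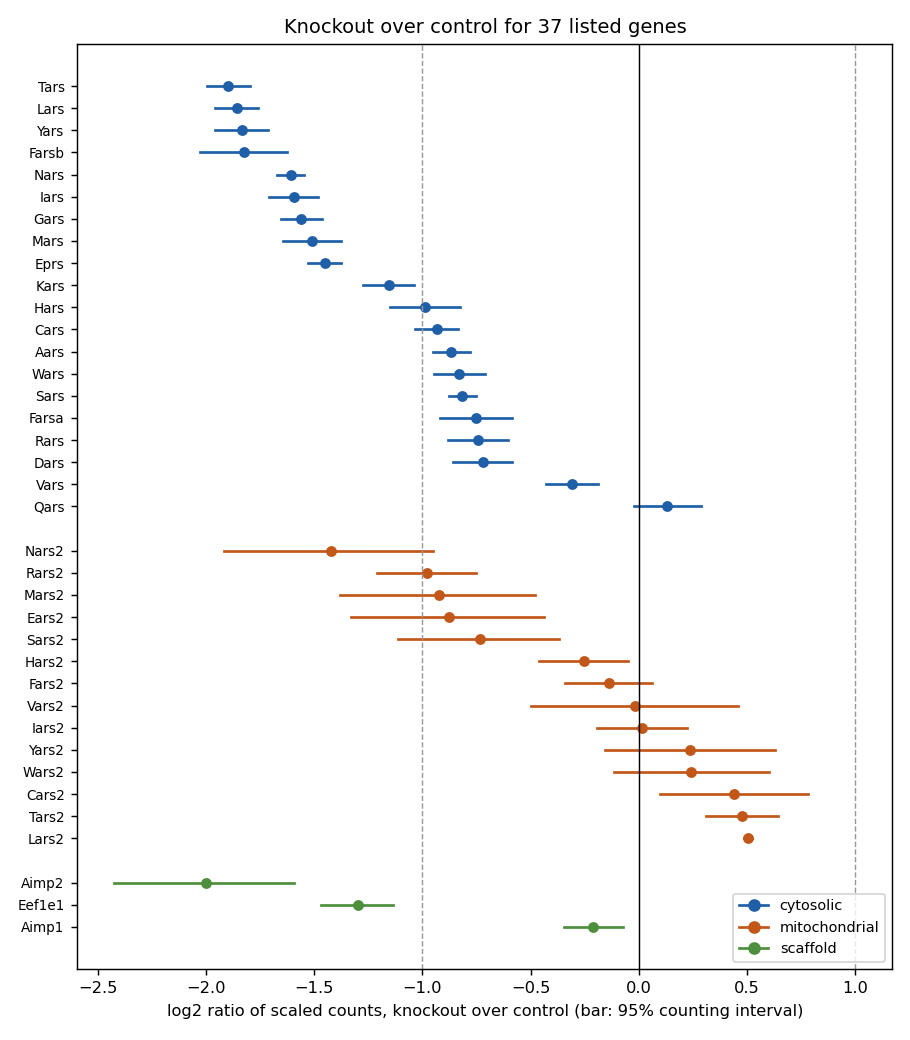
The log2 ratio of scaled counts without a pseudocount, knockout over control, for the 37 listed genes, grouped as cytosolic, mitochondrial and scaffold; points are the ratios, bars are 95% counting intervals and dashed lines mark 2-fold. The cytosolic ratios run from -1.90 for Tars to 0.13 for Qars, and the mitochondrial ratios lie on both sides of 0.

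Mitochondrial synthetase transcripts were spread around no difference. Of 14 listed genes, 8 had a lower and 6 a higher level in knockout Tregs, 1 was lower by 2-fold or more and 0 higher by 2-fold or more. The median log2 ratio was -0.08, and the cytosolic minus the mitochondrial median was -0.99. These genes were also far less counted, with a median of 12.5 CPM in control Tregs against 176 CPM for the cytosolic genes, so their counting intervals were wider. Of all listed genes, 8.41% were lower by 2-fold or more, and 1 of 14 is near that share.

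The lowest mitochondrial gene was Nars2, the asparaginyl enzyme, at 4.26 CPM in knockout Tregs and 11.4 CPM in control Tregs, from 49 and 152 counts, 2.68-fold lower (1.93 to 3.78). Rars2, for arginine, measured 20.02 CPM against 39.5 CPM, or 1.97-fold lower (1.69 to 2.31). Mars2, for methionine, stood at 5.40 CPM against 10.2 CPM, 1.90-fold lower (1.39 to 2.60). Ears2 and Sars2, for glutamate and serine, were likewise lower, by 1.84-fold and 1.66-fold, with intervals that did not include 1. Hars2, Fars2 and Vars2 had log2 ratios of -0.25, -0.14 and -0.02, and Iars2 had 0.01; Vars2 became 0.02 with total-count scaling and Iars2 became -0.15 under pan T cell scaling. Yars2 and Wars2 had log2 ratios of 0.22 and 0.23, with counting intervals of the fold that included 1.

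At the other end, Tars2, for threonine, stood at 57.1 CPM in knockout Tregs and 41.1 CPM in control Tregs and was 1.39-fold higher (1.24 to 1.56). Cars2, for cysteine, measured 13.7 CPM against 10.1 CPM, or 1.36-fold higher (1.07 to 1.72). Lars2, for leucine, had 57401 counts in knockout and 46846 in control Tregs, or 4996 CPM against 3524 CPM, a 1.42-fold higher level (1.40 to 1.43). Its level of 318 CPM per kilobase in control Tregs stood above that of each cytosolic synthetase gene, and the other 13 mitochondrial genes reached at most 14.3 CPM per kilobase. Lars2 supplied 93.1% of the mitochondrial synthetase counts in control Tregs. The Lars2 transcript Lars2-201 in GENCODE M21, of 3894 bases, holds a stretch of 72 bases, from base 3278 to 3349. That stretch matches a transcript of another gene, Gm15564, at 71 bases and in the same orientation. Gm15564 was 1.67-fold higher in knockout Tregs (1.60 to 1.74). Where along Lars2 the reads lay cannot be read from gene counts, so its value is uncertain. The summed mitochondrial level had a log2 ratio of 0.47 with Lars2 and -0.16 without it, and the median without it was -0.14.

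Enzyme pairs for the same amino acid were then compared, because the scaling of the libraries cancels in the ratio of a cytosolic to a mitochondrial gene. In 13 pairs with both genes listed, the cytosolic gene had the lower ratio in 12, and in 9 of these the counting interval of the difference excluded 0. The largest differences were in Tars against Tars2, at -2.37 on the log2 scale (-2.56 to -2.18), and in Lars against Lars2, at -2.36, which rests on the uncertain Lars2 count. In reads, Tars had 8.21 times the counts of Tars2 in control and 1.59 times in knockout Tregs. Yars against Yars2 differed by -2.07 (-2.47 to -1.67) and Iars against Iars2 by -1.61 (-1.84 to -1.37). Cars and Wars differed from their mitochondrial partners by -1.37 and -1.07. Iars2 and Cars2 share 2034 and 422 exon bases, each with a gene on the opposite strand, so the Iars and Cars differences are less certain.

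In 4 pairs the interval of the difference included 0. Nars and Nars2 differed by -0.19 (-0.65 to 0.28) and Sars and Sars2 by -0.08 (-0.45 to 0.28), with both genes of each pair lower in knockout Tregs. Rars against Rars2 was the pair with the opposite sign, at 0.24 (-0.02 to 0.50). Vars and Vars2 differed by -0.29 (-0.77 to 0.18). An interval that includes 0 does not show that the genes had the same ratio. Hars and Hars2, which share 195 exon bases on opposite strands, differed by -0.73 (-0.99 to -0.48).

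**Figure D3:**
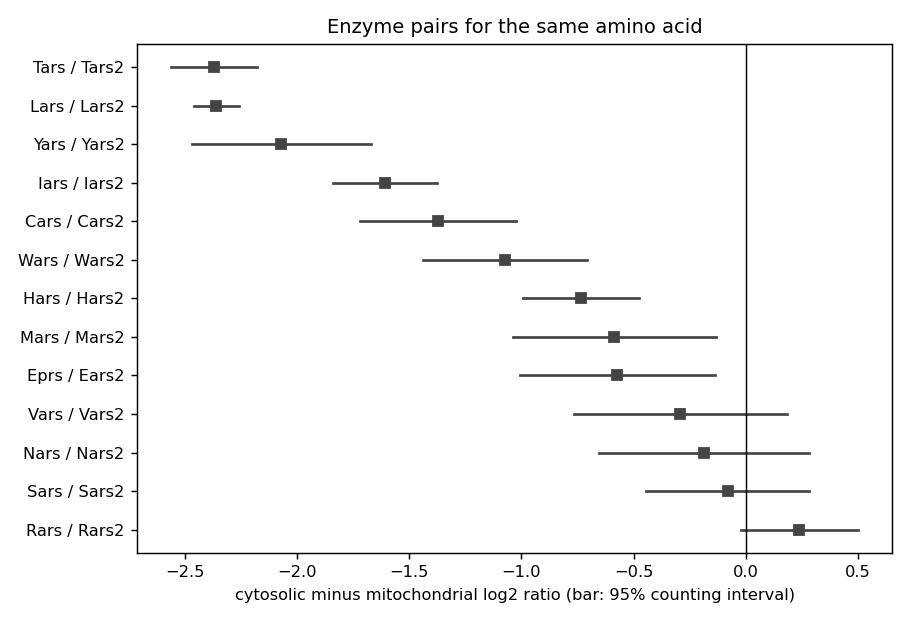
Difference between the log2 ratio of the cytosolic and of the mitochondrial gene for 13 amino acids, with 95% counting intervals as bars; 0 marks equal ratios. The Tars, Lars and Yars pairs lie below -2, and the intervals of the Vars, Nars, Sars and Rars pairs include 0.

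Other steps of tRNA biology were examined from lists of genes, whose counts stand beside the 8.41% of all listed genes that were lower by 2-fold or more and the 10.9% that were higher by 2-fold or more. Of 23 listed tRNA splicing, processing and export genes, 6 were lower by 2-fold or more and 0 higher by 2-fold or more, with a median log2 ratio of -0.53. Xpot, the tRNA export receptor, measured 43.8 CPM against 105 CPM, or 2.40-fold lower (2.17 to 2.67). Thg1l, which adds a guanosine to histidine tRNA, was 3.62-fold lower, whereas Tsen34, a subunit of the tRNA splicing endonuclease, and Clp1 had log2 ratios of 0.41 and 0.06.

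Of 59 listed tRNA modification genes, 13 were lower by 2-fold or more and 0 higher by 2-fold or more, beside 8.41% and 10.9% of all listed genes, with a median of -0.43. Mettl1 and Wdr4, which form the methyltransferase that methylates a guanosine of the variable loop of tRNA, were the lowest. Mettl1 stood at 3.39 CPM against 37.3 CPM, from 39 and 496 counts, and was 11.0-fold lower (7.93 to 15.6). Wdr4 measured 4.09 CPM against 20.6 CPM, or 5.04-fold lower (3.69 to 7.02). Ctu1 and Trmt2b, at the other end, had log2 ratios of 0.60 and 0.38.

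RNA polymerase III transcribes tRNA genes, and its list of 22 genes also holds its transcription factors and a repressor. Of the 22, 6 were lower by 2-fold or more, beside 8.41% of all listed genes, and 0 higher by 2-fold or more. The median log2 ratio was -0.19. The subunit gene Polr3d was 3.43-fold lower, and Maf1, the repressor of this polymerase, was 1.51-fold higher (1.41 to 1.61). Of 12 partners of aminoacylation, 1 was lower by 2-fold or more, Dtd1, which removes D-amino acids from tRNA, at 2.18-fold; 1 of 12 is near the 8.41% of all listed genes. Ptrh2, a peptidyl-tRNA hydrolase gene, had -0.79, and Prorsd1 and Gatc had 0.27 and -0.20.

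The amino acid response list was lower in most members but not in all. Of 26 genes, 17 were lower by 2-fold or more, beside 8.41% of all listed genes, and 4 higher by 2-fold or more, beside 10.9%, with a median of -1.32. Asns, asparagine synthetase, measured 67.0 CPM against 572 CPM, or 8.53-fold lower (7.92 to 9.20), and Pycr1, of proline synthesis, was 13.9-fold lower from 19 and 305 counts. Slc7a11, the cystine transporter, and Nupr1 were 9.19-fold and 6.65-fold higher. Atf4 itself measured 290.3 CPM against 396 CPM, or 1.36-fold lower (1.31 to 1.42). Of the 8 listed eIF2 alpha kinases and partners, which act upstream of ATF4 translation, 0 differed by 2-fold or more, with a range of log2 ratios from -0.43 for Ppp1r15a to 0.39 for Impact.

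**Figure D4:**
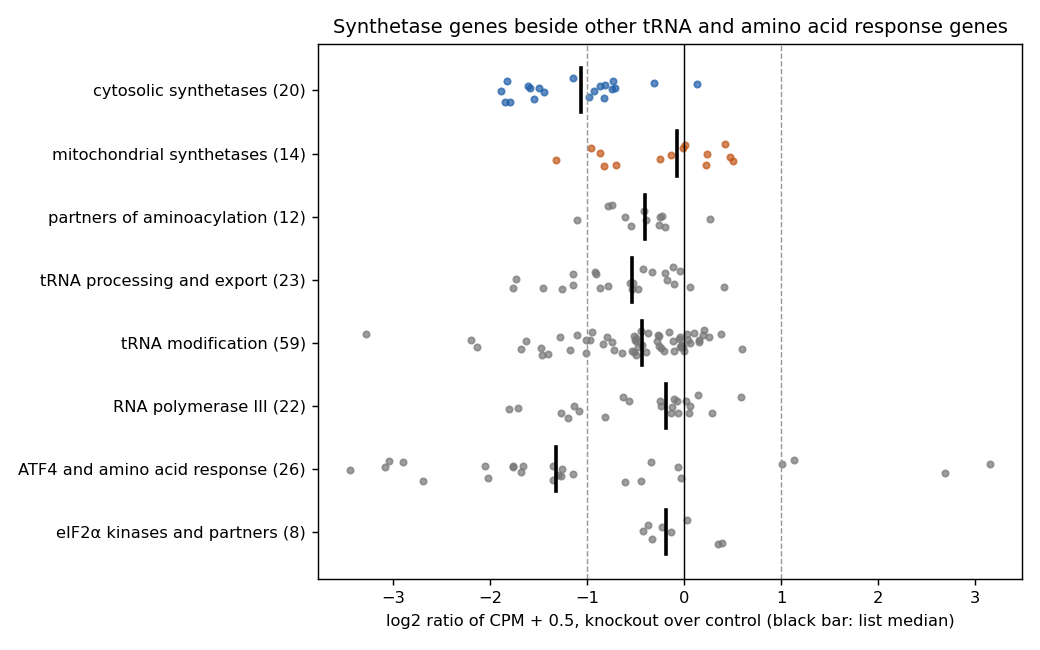
The log2 ratio of CPM + 0.5, knockout over control, for cytosolic and mitochondrial synthetase genes and 6 lists of other tRNA and amino acid response genes; each point is a gene, black bars are list medians, dashed lines mark 2-fold and the vertical scatter has no meaning. The medians are -1.06 for cytosolic synthetases, -0.08 for mitochondrial ones and -1.32 for the ATF4 and amino acid response list.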

How the data were processed

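Per the labels' protocols, Trizol was used for RNA extraction and an Illumina TruSeq kit for the libraries. The submitters' processing notes name TopHat2 2.0.12, Bowtie2 2.2.3, edgeR and HTSeq 0.6.1, and mm8 as the build; which annotation, strand setting and rule for shared reads applied is not given in the sources used here. Raw read counts for 10219 genes were deposited by the authors and sum to 11337415 for knockout and 13472317 for control Tregs; these are sums over listed genes, not sequencing depth. The lowest mean of both counts was 50.5, so genes counted less are not listed. The deposited log2 fold change served as an alternative. The deposited log2 CPM, p-value and likelihood ratio score, the mean count and the signed ratio (scores here) were not used. Each sample description names its count column.

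TMM scaling gave CPM (R 4.3.3 with edgeR 4.0.16). Log2 ratios, knockout over control, used CPM + 0.5, and a gene was counted at 2-fold by that ratio. Printed folds are ratios of scaled counts without a pseudocount, with exact conditional binomial (Clopper-Pearson) 95% intervals (scipy 1.17.1). Intervals of pair differences are normal intervals on the log2 scale from the 4 counts. Scaling was tested on simulated counts in which a small share of genes was changed, equally often up and down. More genes differed between these 2 libraries, so that test cannot show how well the scaling works here. With 1 library per genotype no test was run. Exon lengths and overlaps came from GENCODE M21, which held 10200 of the listed IDs; its build differs from the named one. Shared sequence was aligned with blastn 2.17.0. The members, gene lists and naming rule (all members, plus up to 2 genes at each end of other lists, some of which are not reported here) were chosen with earlier results of these data known; Xpot, Atf4, Ddit3, Eif2ak1, Foxp3, Il2ra and Gm15564 were added to the named genes after their values were seen. Other scalings, pseudocounts, a level filter, other fold limits and the authors' fold change were tried.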

Additional observations from a re-analysis of the deposited data

How the results depend on the processing

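The count of 13 synthetase and scaffold genes lower by 2-fold or more was 25 at 1.5-fold and 0 at 4-fold. The cytosolic count of 10 was 18 and 0. The 2-fold counts stand beside 8.41% of all listed genes. Shares of all listed genes at 1.5-fold and 4-fold were not computed, so counts at those limits have no share beside them. The mitochondrial count of 1 was 5 at 1.5-fold and 0 at 4-fold, 3 under pan T cell scaling, and 0 with a pseudocount of 5 or a mean CPM of at least 10, because Nars2 left the count. The count of these 37 genes higher by 2-fold or more was 0 under each alternative, including the 1.5-fold limit. The log2 ratio of the summed cytosolic level, -1.25, became -1.21 with total-count scaling and -1.42 under pan T cell scaling. That of the summed mitochondrial level, 0.47, became 0.50 with total-count scaling, 0.30 under pan T cell scaling and -0.16 without Lars2. Hif1a moved from -0.71 to -0.67 and -0.88 in those scalings. Of 291 alternative values of single genes, 288 kept their sign. An equal pseudocount or the level filter cannot change the sign of a ratio, so most of that agreement was fixed in advance. The 3 changes came from other scalings: Vars2 with total-count scaling, and Iars2 and Qars under pan T cell scaling. Without genes whose exons overlap another gene, the cytosolic median was -0.99 and the mitochondrial 0.22; this setting and that without Lars2 were chosen after seeing the data. No paired analysis was possible because there is 1 library per genotype; for the same reason no library could be left out. The summed levels carry no pseudocount and no deposited fold change, so these alternatives gave no value for them. At low counts, such as the 49 and 152 of Nars2, the counting interval spans 1.93-fold to 3.78-fold.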
